A study of Homo sapiens with 5 samples.

Results

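Transcript levels in MCC13, a line grown from a Merkel cell carcinoma, were compared with those in 3 other lines from the same kind of tumour, MKL-1, MKL-2 and WaGa. The genes compared were those at 1 TPM or more, a unit of transcript share scaled for transcript length, in at least 1 of these 4 lines, which kept 20698 of the 57905 genes of the deposited table. All 4 lines were labelled wild type in genotype and were grown in RPMI medium with fetal bovine serum. Each line gave 1 library of polyadenylated RNA. REH, a B-cell leukaemia line in the same table, was outside the comparison.

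Merkel cell carcinoma is a neuroendocrine cancer of the skin. Its cells usually keep the program of the touch-sensing Merkel cell: proneural transcription factors switch on neural genes, dense-core granules store and process peptide hormones, and voltage-gated channels make the cells excitable. Most such tumours carry the Merkel cell polyomavirus, and MKL-1, MKL-2 and WaGa are lines that do; MCC13 is a line without the virus that grows attached to the dish, whereas the virus-carrying lines grow as floating clusters. The programs followed below are those known for setting such classes of cell apart: neural and mesenchymal transcription factors, the matrix and cytokines a cell secretes, the receptors and adhesion molecules at its surface, and the pathways that these receptors feed.

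MCC13 had no replicate. With 1 library each, what is due to a line cannot be told apart from what is due to its library. The limma test on log2(TPM + 1) therefore took the spread among MKL-1, MKL-2 and WaGa as the error and assumed that MCC13 varied as they did. Its p-values measure the spread between lines. With 1 line set against 3, exact permutation gives no p below 0.25, so single genes were not tested that way. A gene is called here where the Benjamini-Hochberg adjusted p over all 20698 genes was under 0.05, and a description with no test, the 4-fold rule, counts genes whose log2(TPM + 1) in MCC13 lay at least 2 above the highest, or at least 2 below the lowest, of the other 3 lines. Each log2 difference below is MCC13 minus the mean of the other 3 lines on log2(TPM + 1), which understates the change of genes of low level, and is followed by its standard error (SE). Read depth was not recoverable from TPM, and a value of 0 means only that the gene is listed at 0. MCC13 had 15949 genes at 1 TPM or more, against 16715 in MKL-1, 16921 in MKL-2 and 16734 in WaGa, and 3.52% of its TPM came from mitochondrially encoded genes, against 6.50% in MKL-1, 7.84% in MKL-2 and 6.37% in WaGa.

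MCC13 was the line set apart from the other 3. Between MCC13 and each of them, 3893 to 4067 genes differed by at least 4-fold in TPM + 1, against 1022 to 1373 genes in the 3 pairs among MKL-1, MKL-2 and WaGa. Across the 20698 genes Pearson's r on log2(TPM + 1) was 0.703 to 0.717 for the pairs with MCC13 and 0.896 to 0.920 for the other pairs, a description over genes, which are not replicates. The limma test called 1340 genes higher in MCC13, 6.47% of those tested, and 512 genes lower, 2.47%. These shares are the background for the counts of each list below. A gene under 1 TPM in each of the other 3 lines was tested only through MCC13 and could hardly be called lower. By the 4-fold rule 1284 genes lay above all 3 other lines, 6.20%, and 1021 lay below, 4.93%, and the median difference over all genes was -0.30. Leaving out MKL-1, MKL-2 or WaGa left 1 residual degree of freedom, 0 calls by limma's adjusted p in either direction each time, and 4414, 4978 and 4579 genes at an unadjusted p under 0.05; with all 4 lines it was 5516.

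The calls in both directions differed in level. Of the 1340 genes called higher, 1134 were under 1 TPM in each of MKL-1, MKL-2 and WaGa, and 329 were listed at 0 in all 3, while their median level in MCC13 was 7.85 TPM. Of the 512 called lower, 247 were under 1 TPM in MCC13, and the median of their mean level in the other 3 lines was 56.9 TPM. A high gene that varied among the other 3 lines could be far above them in MCC13 and still miss the test. THBS1, a matricellular protein that binds collagen and activates latent TGF-beta, ranked 7th in level among the protein-coding genes of MCC13. It was at 3987 TPM in MCC13, against 44.9 TPM in MKL-1, 7.37 in MKL-2 and 28.4 in WaGa, a log2 difference of 7.47 ± 1.16 (SE, adjusted p = 0.0568). The share of calls differed between classes of gene, against 6.47% higher and 2.47% lower over all genes. Of 14556 protein-coding genes 918 (6.31%) were called higher and 447 (3.07%) lower. Of 3088 long noncoding genes 286 (9.26%) were called higher and 33 (1.07%) lower. Yet the median difference of the long noncoding genes was -0.528, below the -0.195 of protein-coding genes. By the 4-fold rule 152 long noncoding and 1059 protein-coding genes lay above.

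**Figure D1:**
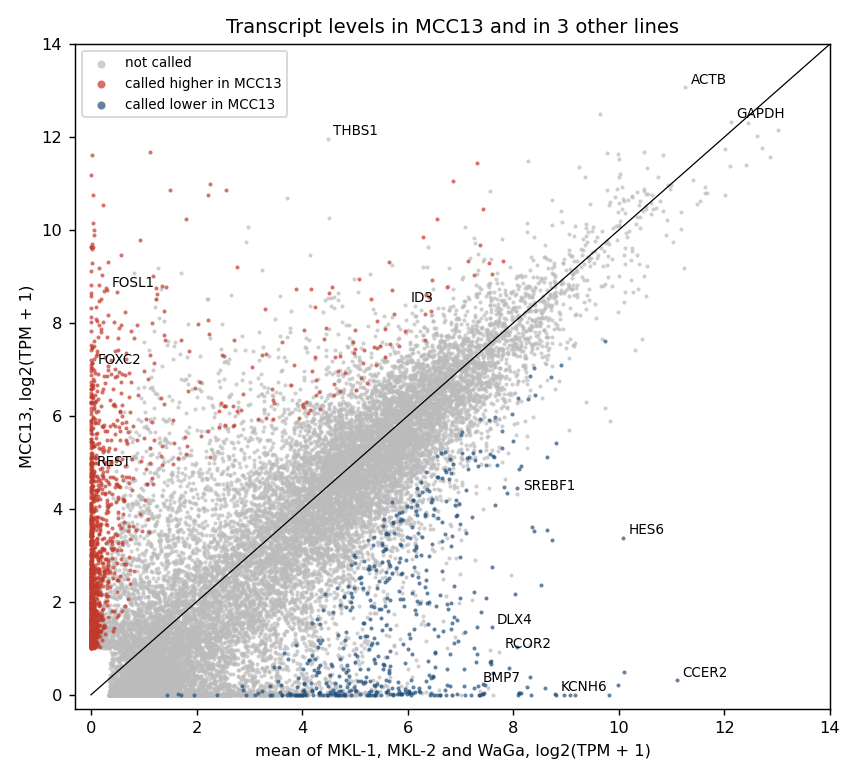
Transcript level of each tested gene on log2(TPM + 1), MCC13 on the vertical axis and the mean of MKL-1, MKL-2 and WaGa on the horizontal axis, with the line of equal level. Genes called by limma at an adjusted p under 0.05 are in red where higher and in blue where lower in MCC13; most red points stand at the left edge, where the other 3 lines are near 0, and blue points reach the bottom edge, as CCER2 (0.241 TPM in MCC13, 1569 to 4136 TPM in the other 3) does.

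The label was checked against markers of the cell types such a line could hold. Of 19 tested markers of Merkel and neuroendocrine cells, 12 were called lower in MCC13 and 1, TMEM163, higher, with a median difference of -6.59; their TPM summed to 59.99 in MCC13, against 5176 in MKL-1, 5513 in MKL-2 and 8720 in WaGa. ATOH1, INSM1, ISL1 and KRT20, which define the Merkel cell, were listed at 0 in MCC13, so its expression did not show the cell type of the tumour it is labelled with. Of 15 fibroblast and mesenchymal markers 6 were called higher and 0 lower, and 3 had a negative difference. Their TPM summed to 6776 in MCC13, of which VIM made up 3125 TPM, against 299 in MKL-1, 35.1 in MKL-2 and 61.8 in WaGa. S100A4, a marker of the same list, ran the other way, at 0.311 TPM in MCC13, against 1.18 TPM in MKL-1, 16.1 in MKL-2 and 9.86 in WaGa. Of 9 keratinocyte markers 2, DSC3 and KRT14, were called higher and 0 lower, and 2 had a negative difference. KRT5, another of these markers, was listed at 0 in MCC13 and at 4.2 TPM in MKL-1, 0.676 in MKL-2 and 5.95 in WaGa. KRT17, a basal and stress keratin, supplied most of the keratinocyte sum in MCC13. It was at 1649 TPM in MCC13, against 13.6 TPM in MKL-1, 40.1 in MKL-2 and 2.71 in WaGa, and missed the test (adjusted p = 0.108). Leukocyte and muscle markers summed to 127 and 1.50 TPM in MCC13, against 37.2 to 53.2 and 3.80 to 12.6 TPM in the other 3 lines. Of 7 tested leukocyte markers 1 was called higher and 0 lower, and 4 had a negative difference, with a median of -0.86. Of 4 tested muscle markers 0 were called and 3 had a negative difference. Of 16 markers of simple epithelium 5 were called lower and 1 higher, and their TPM summed to 591.7 in MCC13, against 1143 in MKL-1, 1774 in MKL-2 and 2023 in WaGa. Of 5 tested endothelial markers 3, ENG, ROBO4 and TIE1, were called higher and 0 lower. Endothelial markers summed to 154 TPM in MCC13, of which ENG made up 118 TPM, against 11.2 to 50.1 TPM in the other 3 lines; CDH5 and VWF, which define endothelium, were at 0.782 and 0.137 TPM in MCC13. In bulk RNA, fewer cells of a type and less RNA of that type per cell cannot be told apart. Melanocyte markers summed to 20.7 TPM in MCC13, against 7.35 to 10.1 TPM in the other 3 lines, and MITF made up 16.1 TPM of the sum in MCC13. Of 5 tested melanocyte markers 0 were called and 4 had a negative difference, with a median of -0.47.

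Transcription factors split in both directions. Of 434 tested members of factor families, 49 (11.3%) were called higher in MCC13 and 31 (7.14%) lower, against 6.47% and 2.47% of all genes. Of 40 families with a detected leading member in every line, 25 had a most abundant member in MCC13 that led in none of the other 3 lines, and in 14 of those 25 the other 3 lines shared 1 leader. Only 6 families had the same leader in all 4 lines. The leader of a family in each line was read from TPM, which is scaled for transcript length.

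**Figure D2:**
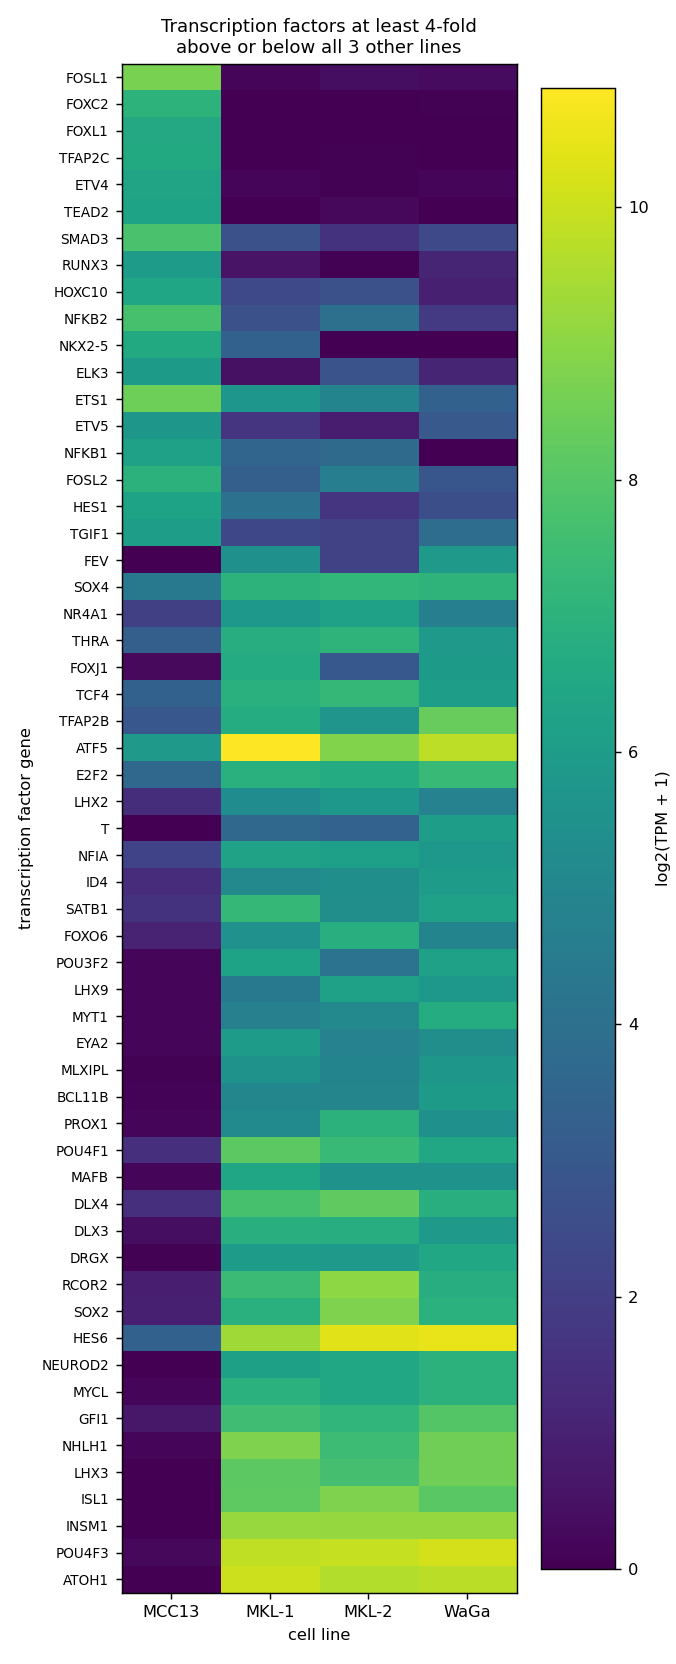
Level on log2(TPM + 1) of the 57 transcription factor genes that reached 50 TPM in at least 1 of the 4 lines and passed the 4-fold rule, 1 row per gene and 1 column per line. The 18 genes above run from FOSL1 to TGIF1 and are brighter in the MCC13 column than in any other; the 39 below run from FEV to ATOH1 and are darker in the MCC13 column than in any other.

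Among the factors that answer to growth factor, stress and mechanical signals, the AP-1 family had another leading member in MCC13. FOSL1, an AP-1 subunit induced by RAS-MAPK signalling, was at 415 TPM in MCC13, against 0.136 TPM in MKL-1, 0.316 in MKL-2 and 0.236 in WaGa, a log2 difference of 8.40 ± 0.37 (SE, adjusted p = 0.00855), and it led the family in MCC13. FOSL2, its closest relative, was at 126 TPM in MCC13, against 8.67 TPM in MKL-1, 24.5 in MKL-2 and 6.49 in WaGa, which did not pass (adjusted p = 0.133). The partner JUN was at 187 TPM in MCC13, against 86.4 TPM in MKL-1, 199.5 in MKL-2 and 51.4 in WaGa, so its MCC13 level fell inside the range of the other lines. JUND, which led the family in MKL-1 and WaGa, was at 38.3 TPM in MCC13, against 90.4 TPM in MKL-1, 119.8 in MKL-2 and 194 in WaGa, without passing (adjusted p = 0.17). In the ETS family ETV4, an ERK-induced factor, was called higher, at 81.1 TPM in MCC13, against 0.129 TPM in MKL-1, 0.059 in MKL-2 and 0.124 in WaGa. ETS1 led the family in MCC13 at 358 TPM, against 51.6 TPM in MKL-1, 29.4 in MKL-2 and 9.42 in WaGa, a gap that the spread of those lines kept from passing (adjusted p = 0.152).

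TEAD factors bind DNA for the coactivators YAP1 and WWTR1 (TAZ), and only some of them differed. TEAD2 and TEAD3 were called higher in MCC13: TEAD2 was at 78.2 TPM in MCC13, against 0.0191 TPM in MKL-1, 0.163 in MKL-2 and 0 in WaGa. TEAD3 was at 30 TPM in MCC13, against 0.0921 TPM in MKL-1, 0.0398 in MKL-2 and 0.953 in WaGa. TEAD1 and TEAD4 were present in all 4 lines. TEAD4 was at 110.2 TPM in MCC13, against 88.1 TPM in MKL-1, 49.3 in MKL-2 and 40.1 in WaGa. TEAD1 was at 41.1 TPM in MCC13, against 20.9 TPM in MKL-1, 25.7 in MKL-2 and 33.8 in WaGa, neither called (adjusted p = 0.364 and 0.387). RUNX1, RUNX2 and RUNX3, the DNA-binding subunits of core-binding factor, were each called higher in MCC13. RUNX3 was the highest of them, at 62.7 TPM in MCC13, against 0.498 TPM in MKL-1, 0.0411 in MKL-2 and 1.17 in WaGa, while the shared beta subunit CBFB was at 74.8 TPM in MCC13, against 92.7 TPM in MKL-1, 98.7 in MKL-2 and 58.2 in WaGa and overlapped. TEAD3, RUNX1 and RUNX3 lost their calls at a pseudocount of 0.1. SMAD3, which carries TGF-beta and activin signals to the nucleus, was called higher, at 215 TPM in MCC13, against 5.44 TPM in MKL-1, 2.01 in MKL-2 and 4.31 in WaGa, a log2 difference of 5.52 ± 0.60 (SE, adjusted p = 0.0277). TFAP2C was called higher at 97.6 TPM in MCC13, and listed at 0 in MKL-1 and WaGa and at 0.0415 TPM in MKL-2, whereas its paralog TFAP2A overlapped at 103 TPM in MCC13 and 67.1 TPM in MKL-1, 130.3 in MKL-2 and 287 in WaGa.

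Single developmental factors of several families, picked with their values known, had transcript in MCC13 and little or none in the other 3 lines, and others ran the opposite way. FOXC2, a forkhead factor of mesenchyme and vessels, was at 129.9 TPM in MCC13, against 0 TPM in MKL-1, 0 in MKL-2 and 0.0334 in WaGa. FOXL1, a forkhead factor of gut mesenchyme, was at 94.3 TPM in MCC13 and listed at 0 in all 3 other lines. Both forkhead genes were called, at an adjusted p of 0.00855. GATA6, an endoderm and heart factor, was also called higher, at 17.5 TPM in MCC13, against 0.0111 TPM in MKL-1, 0 in MKL-2 and 0.42 in WaGa. TBX18, TWIST2 and SOX9, which act in mesenchyme, skull and cartilage, were called higher at 30.5, 13.7 and 17.9 TPM in MCC13; the other 3 lines held at most 0.00335 TPM of TBX18, and TWIST2 and SOX9 were listed at 0 there. PRRX1, a limb mesenchyme factor, was called too, at 6.34 TPM in MCC13, against 0 TPM in MKL-1, 0.0139 in MKL-2 and 0 in WaGa. NKX2-5, a heart factor, was at 95.4 TPM in MCC13, against 9.39 TPM in MKL-1, 0 in MKL-2 and 0 in WaGa, which did not pass (adjusted p = 0.185). T (brachyury), a factor of early mesoderm, was listed at 0 in MCC13 and at 11.8 TPM in MKL-1, 9.83 in MKL-2 and 65.5 in WaGa, at least 4-fold below all 3 without a call. Of 10 tested mesodermal bHLH genes, the family of TWIST2, 2 were called higher and 0 lower, and 7 had a negative difference, MSC among them, at 8.04 TPM in MCC13, against 132 TPM in MKL-1, 41.5 in MKL-2 and 25.2 in WaGa (adjusted p = 0.265). The GATA family summed to 31.3 TPM in MCC13, against 0.975 TPM in MKL-1, 2.38 in MKL-2 and 43.5 in WaGa, where GATA5 led in place of GATA6. The HOX clusters had other leading members. HOXC10 led them in MCC13, at 83.9 TPM in MCC13, against 4.34 TPM in MKL-1, 5.4 in MKL-2 and 0.93 in WaGa (adjusted p = 0.0943). HOXB7 was called higher, at 20.1 TPM in MCC13, against 0 TPM in MKL-1, 0.0436 in MKL-2 and 0 in WaGa. HOXD9 was called lower, at 1.26 TPM in MCC13, against 21.5 TPM in MKL-1, 23.4 in MKL-2 and 39.4 in WaGa. GATA6 lost its call at a pseudocount of 0.1, and HOXD9 where every gene above 0 TPM was tested. Of 31 tested HOX genes, 7 were called higher and 1 lower, and the family's TPM summed to 260.7 in MCC13, against 379.8 in MKL-1, 603 in MKL-2 and 341 in WaGa.

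Factors of neural and sensory lineages stood among those called lower. Proneural bHLH genes summed to 4.67 TPM in MCC13, against 1634 TPM in MKL-1, 1114 in MKL-2 and 1414 in WaGa, with 3 of 12 tested members called lower and 0 higher. NHLH1, a bHLH factor of newly born neurons, was at 0.124 TPM in MCC13, against 443 TPM in MKL-1, 175 in MKL-2 and 365 in WaGa, a log2 difference of -8.09 ± 0.66 (SE, adjusted p = 0.0154), and NEUROD2 was called lower as well, at 0.0034 TPM in MCC13, against 71.8 TPM in MKL-1, 87.8 in MKL-2 and 125 in WaGa. LHX3, a LIM homeobox factor of motor neurons and pituitary, was at 0.0265 TPM in MCC13, against 283 TPM in MKL-1, 202 in MKL-2 and 366 in WaGa. GFI1, which hair cells and Merkel cells need downstream of ATOH1, was at 0.634 TPM in MCC13, against 184 TPM in MKL-1, 144 in MKL-2 and 248 in WaGa; both were called lower. DRGX, a paired homeobox factor of pain-sensing neurons, was called lower, at 0.0467 TPM in MCC13, against 64.4 TPM in MKL-1, 58.2 in MKL-2 and 90 in WaGa. In the HES, HEY and ID group the leaders differed: HES6, which counters HES1 and favours neuronal differentiation, was called lower, at 9.39 TPM in MCC13, against 639.5 TPM in MKL-1, 1350 in MKL-2 and 1461 in WaGa. ID3, an inhibitor of bHLH factors, led in MCC13 at 331 TPM, against 101 TPM in MKL-1, 54.8 in MKL-2 and 40.9 in WaGa, without passing (adjusted p = 0.127). HES1 itself was at 78.3 TPM in MCC13, against 16.4 TPM in MKL-1, 2.15 in MKL-2 and 5.05 in WaGa (adjusted p = 0.187). SOX2, a stem-cell and sensory progenitor factor, was at 0.945 TPM in MCC13, against 118 TPM in MKL-1, 440.1 in MKL-2 and 124 in WaGa, past the 4-fold rule but not called (adjusted p = 0.0527).

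Some families exchanged their members. Among the DLX homeobox genes DLX2 was called higher in MCC13, at 24 TPM in MCC13, against 0.154 TPM in MKL-1, 1.09 in MKL-2 and 0.0976 in WaGa. DLX4, the leader in the other 3 lines, was called lower, at 1.74 TPM in MCC13, against 208 TPM in MKL-1, 299 in MKL-2 and 113 in WaGa. DLX2 lost its call at a pseudocount of 0.1. DLX3 was also called lower, at 0.314 TPM in MCC13, against 116 TPM in MKL-1, 108 in MKL-2 and 55.9 in WaGa. Among TCF and LEF factors, which read out Wnt signals, TCF7L2 led in MCC13 at 17.3 TPM, against 2.63 TPM in MKL-1, 6.42 in MKL-2 and 2.34 in WaGa, and LEF1 led in the other 3 lines, being at 1.38 TPM in MCC13, against 13.8 TPM in MKL-1, 12.4 in MKL-2 and 19.7 in WaGa; neither passed. The ZEB and OVOL factors, which repress each other and set mesenchymal against epithelial states, showed the same kind of split without a call. ZEB1 was at 26.4 TPM in MCC13, against 9.02 TPM in MKL-1, 5.93 in MKL-2 and 9.36 in WaGa (adjusted p = 0.14), and OVOL2 was at 0.11 TPM in MCC13, against 24.5 TPM in MKL-1, 13.2 in MKL-2 and 41.6 in WaGa (adjusted p = 0.0709).

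REST, the repressor that silences neural genes in cells other than neurons, was called higher in MCC13, at 27.7 TPM in MCC13, against 0.00573 TPM in MKL-1, 0 in MKL-2 and 0 in WaGa, a log2 difference of 4.84 ± 0.21 (SE, adjusted p = 0.00855). Of the 19 tested genes of its list REST was the 1 called higher, and 5 were called lower, MYT1L and BCL11B among them; BCL11B was at 0.0636 TPM in MCC13, against 31.2 TPM in MKL-1, 30.3 in MKL-2 and 59.8 in WaGa. ACTL6B, the actin-like subunit found in neuronal BAF remodelling complexes, was listed at 0 in MCC13 and at 142 TPM in MKL-1, 92.8 in MKL-2 and 189 in WaGa, and was called lower. RCOR2, a partner of the demethylase KDM1A, was at 0.897 TPM in MCC13, against 172 TPM in MKL-1, 518 in MKL-2 and 107 in WaGa, which did not pass (adjusted p = 0.0569). Regulators of alternative splicing with restricted expression had 7 of 30 tested members called lower and 0 higher. RBFOX1, KHDRBS2 and ELAVL4, which shape splicing and messenger stability in neurons, were listed at 0 in MCC13; RBFOX1 was at 60.9 TPM in MKL-1, 65.7 in MKL-2 and 35.2 in WaGa, and ELAVL4 at 39.4 TPM in MKL-1, 36.7 in MKL-2 and 33.5 in WaGa. CELF4 was at 0.0785 TPM in MCC13, against 31.1 TPM in MKL-1, 63.5 in MKL-2 and 56.3 in WaGa. PTBP1, the widely expressed repressor of neural exons, was at 609.5 TPM in MCC13, against 825 TPM in MKL-1, 752 in MKL-2 and 1089 in WaGa, a log2 difference of -0.52 ± 0.32 (SE, adjusted p = 0.389). SRRM4, which promotes neural microexons, was at 0.000585 TPM in MCC13, against 10.6 TPM in MKL-1, 29.7 in MKL-2 and 10.6 in WaGa, without passing (adjusted p = 0.0923).

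Genes of the neuroendocrine secretory apparatus were among those called lower in MCC13. Of 22 tested genes for dense-core granules and prohormone processing 5 were called lower and 0 higher, and 11 were at least 4-fold below; their TPM summed to 253 in MCC13, against 2564 in MKL-1, 2724 in MKL-2 and 5504 in WaGa. SCG3, a granin that sorts cargo into granules, was at 0.384 TPM in MCC13, against 240.2 TPM in MKL-1, 232 in MKL-2 and 131 in WaGa. CPE, the carboxypeptidase that trims prohormones, was at 9.1 TPM in MCC13, against 363 TPM in MKL-1, 387 in MKL-2 and 551 in WaGa; both were called lower. The convertase PCSK2 was listed at 0 in MCC13 and at 70.4 TPM in MKL-1, 654 in MKL-2 and 163 in WaGa, a spread that kept it from passing (adjusted p = 0.084). Of 32 tested genes of the synaptic vesicle cycle 8 were called lower and 0 higher. UNC13A, which primes vesicles for release, was at 0.665 TPM in MCC13, against 60.5 TPM in MKL-1, 80.7 in MKL-2 and 114 in WaGa. CPLX2, which clamps them before release, was at 0.0186 TPM in MCC13, against 41.5 TPM in MKL-1, 86.7 in MKL-2 and 54.2 in WaGa. SNAP25, a fusion protein, was less near 0, at 5.74 TPM in MCC13, against 149 TPM in MKL-1, 253 in MKL-2 and 193 in WaGa. These 3 were called lower. Widely used trafficking genes of the same list overlapped, as VAMP2 did, at 122 TPM in MCC13, against 112 TPM in MKL-1, 51.4 in MKL-2 and 160.5 in WaGa. Among G-protein subunits of neurons, GNG8 was listed at 0 in MCC13 and at 413 TPM in MKL-1, 350.4 in MKL-2 and 837 in WaGa, and GNAO1 was at 0.172 TPM in MCC13, against 193 TPM in MKL-1, 178 in MKL-2 and 143 in WaGa, both called lower.

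Secreted proteins had the highest share of higher calls among the kinds of list with over 100 tested genes. Of 316 tested genes on the lists of secreted and matrix proteins 91 (28.8%) were called higher in MCC13 and 9 (2.85%) lower, against 6.47% and 2.47% of all genes, and their median difference was 1.24. By the 4-fold rule 107 were above and 22 below.

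**Figure D3:**
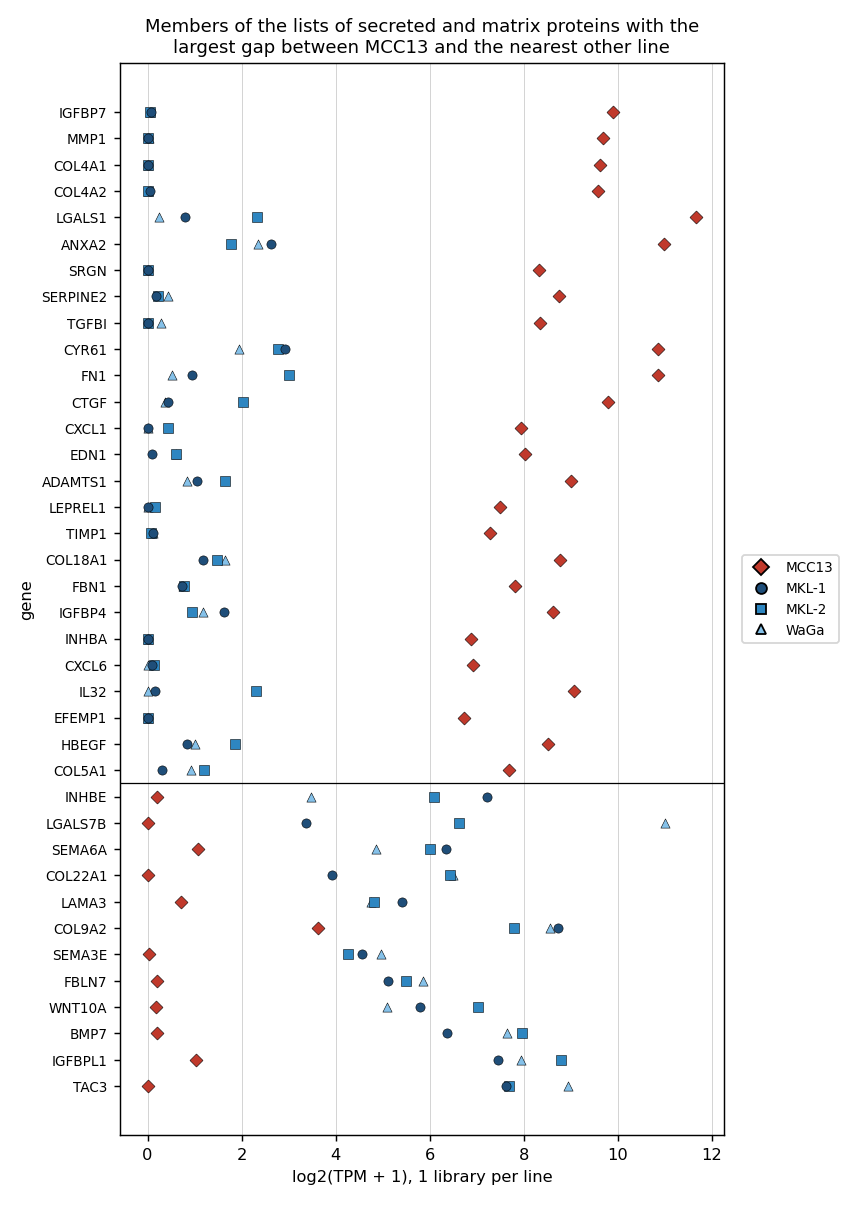
Level on log2(TPM + 1) in MCC13 (diamonds), MKL-1 (circles), MKL-2 (squares) and WaGa (triangles) of 26 secreted or matrix genes among those with the largest gap above the nearest other line and the 12 with the largest gap below, 1 library per line. From IGFBP7 to COL5A1 the diamonds stand alone on the right, and from INHBE to TAC3 they stand alone at the left; LGALS7B has a near-identical copy, LGALS7, so its level is uncertain.

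The plasminogen, kallikrein and coagulation list had the highest share of higher calls among lists with at least 15 tested genes. Of 22 tested genes 15 (68.2%) were called higher and 0 lower, against 6.47% and 2.47% of all genes. Of 25 measured, 16 reached 1 TPM in MCC13, against 5 in MKL-1, 4 in MKL-2 and 8 in WaGa. Those tested only through their level in MCC13 could hardly be called lower. The list summed to 4883 TPM in MCC13, against 67.6 TPM in MKL-1, 33.9 in MKL-2 and 127 in WaGa. The urokinase PLAU, which activates plasminogen, was called higher, at 255 TPM in MCC13, against 1.24 TPM in MKL-1, 0.593 in MKL-2 and 2.08 in WaGa, a log2 difference of 6.85 ± 0.56 (SE, adjusted p = 0.0155). Its receptor PLAUR was at 128 TPM in MCC13, against 40 TPM in MKL-1, 23.7 in MKL-2 and 49.3 in WaGa, not called (adjusted p = 0.153). ANXA2 and S100A10, which form the surface complex that binds plasminogen, were both called higher; ANXA2 was at 2026 TPM in MCC13, against 5.18 TPM in MKL-1, 2.44 in MKL-2 and 4.13 in WaGa. S100A10 was at 78.5 TPM in MCC13, listed at 0 in MKL-1 and MKL-2, and at 0.211 TPM in WaGa. The thrombin receptor F2R and the tissue factor pathway inhibitor TFPI were called higher at 25 and 30.8 TPM in MCC13, against at most 0.0812 TPM of either in the other 3 lines. KLK11, a kallikrein, ran the other way, listed at 0 in MCC13 and at 8.73 TPM in MKL-1, 3.9 in MKL-2 and 20.6 in WaGa (adjusted p = 0.17). The serpin family as a whole summed to 2554 TPM in MCC13, against 89.5 TPM in MKL-1, 76.9 in MKL-2 and 35.7 in WaGa.

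Matrix genes had more higher than lower calls and a larger sum in MCC13. Matricellular and fibrillar matrix genes had 11 of 34 tested (32.4%) called higher and 2 (5.88%) lower, against 6.47% and 2.47% of all genes. They summed to 11820 TPM in MCC13, against 1502 TPM in MKL-1, 395 in MKL-2 and 730 in WaGa. FBN1, the microfibril protein fibrillin, was at 226 TPM in MCC13, against 0.654 TPM in MKL-1, 0.717 in MKL-2 and 0.677 in WaGa. EFEMP1, a fibulin, was at 105 TPM in MCC13 and listed at 0 in the other 3 lines. TGFBI, a TGF-beta-induced matrix protein, was at 324 TPM in MCC13, against 0 TPM in MKL-1, 0.0109 in MKL-2 and 0.224 in WaGa. All 3 were called. Of 30 tested collagens 8 were called higher and 1 lower. COL5A1, which starts collagen fibrils, was at 205 TPM in MCC13, against 0.232 TPM in MKL-1, 1.31 in MKL-2 and 0.903 in WaGa. COL18A1, a basement membrane collagen, was at 437 TPM in MCC13, against 1.26 TPM in MKL-1, 1.77 in MKL-2 and 2.13 in WaGa. COL9A2, a cartilage collagen, was the member called lower, at 11.3 TPM in MCC13, against 422 TPM in MKL-1, 219.9 in MKL-2 and 379 in WaGa. LAMA3, a laminin chain of epithelial basement membrane, was called lower, at 0.642 TPM in MCC13, against 41.7 TPM in MKL-1, 27.2 in MKL-2 and 26.1 in WaGa. SPARC, a collagen-binding glycoprotein, was at 1067 TPM in MCC13, against 240 TPM in MKL-1, 0 in MKL-2 and 1.04 in WaGa; MKL-1 stood far above MKL-2 and WaGa, and it was not called (adjusted p = 0.348). ADAMTS1, a secreted protease of proteoglycans, was called higher, at 511 TPM in MCC13, against 1.09 TPM in MKL-1, 2.14 in MKL-2 and 0.784 in WaGa.

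Cytokines and chemokines had transcript in MCC13 and little in the other 3 lines. Interleukins and related cytokines summed to 1302 TPM in MCC13, against 8.72 TPM in MKL-1, 25.5 in MKL-2 and 9.85 in WaGa, with 8 of 16 tested called higher and 0 lower. IL6, which signals through gp130 to STAT3, was at 127 TPM in MCC13, against 0.277 TPM in MKL-1, 0.799 in MKL-2 and 0.12 in WaGa. LIF, which uses the same receptor subunit, was at 149 TPM in MCC13, against 1.42 TPM in MKL-1, 0 in MKL-2 and 0.632 in WaGa; both were called. IL32 was the most abundant, at 536 TPM in MCC13, against 0.113 TPM in MKL-1, 3.92 in MKL-2 and 0 in WaGa, with MKL-2 above MKL-1 and WaGa, and did not pass (adjusted p = 0.0512). Chemokines summed to 837 TPM in MCC13, against 7.91 TPM in MKL-1, 47.1 in MKL-2 and 46.2 in WaGa, and 6 of 15 tested (40.0%) were called higher. The limit given for interleukins holds for chemokines too: of 43 measured, 12 reached 1 TPM in MCC13, against 3 in MKL-1, 8 in MKL-2 and 5 in WaGa. IL8 (CXCL8) and CXCL1, which attract neutrophils, were called: IL8 was at 299.9 TPM in MCC13, against 0.122 TPM in MKL-1, 2.39 in MKL-2 and 0 in WaGa. CXCL1 was at 247 TPM in MCC13, listed at 0 in MKL-1 and WaGa and at 0.351 TPM in MKL-2. CCL2, which attracts monocytes, was at 154 TPM in MCC13, against 0.416 TPM in MKL-1, 28.4 in MKL-2 and 0.061 in WaGa (adjusted p = 0.272). IL8 and LIF lost their calls at a pseudocount of 0.1. CXCL1, CXCL2 and CXCL3 are closely similar copies, and how reads were divided among them is not known.

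Many of these cytokine genes are known targets of the transcription factor NF-kappaB. On the list of NF-kappaB and inflammatory targets 11 of 21 tested genes (52.4%) were called higher and 0 lower, against 6.47% and 2.47% of all genes. The median difference was 4.62, and 14 were at least 4-fold above. Of 27 measured, 21 reached 1 TPM in MCC13, against 8 in MKL-1, 11 in MKL-2 and 5 in WaGa. Genes tested only through their level in MCC13 could hardly be called lower, which bears on the median too. Of the factors themselves NFKB2 led in MCC13, at 209.7 TPM in MCC13, against 5.55 TPM in MKL-1, 15.2 in MKL-2 and 2.56 in WaGa (adjusted p = 0.0978), while RELA, which led in the other 3 lines, was at 67.2 TPM in MCC13, against 106 TPM in MKL-1, 98.4 in MKL-2 and 80.5 in WaGa (adjusted p = 0.333). NFKB1 was at 73.9 TPM in MCC13, against 10.9 TPM in MKL-1, 12.6 in MKL-2 and 0 in WaGa, listed at 0 in WaGa alone. Promoters were read from RefSeq on GRCh38.p14 as the 250 bases before each annotated start, and the letters GGAATTTCC, an NF-kappaB consensus, were searched on both strands. Both the motif and the genes were picked with these values known. The genes came from a list of known NF-kappaB targets, which may carry such letters for that reason, so no conclusion was drawn from the count. The motif was in 4 of the 12 listed genes that were at least 4-fold above and had a window, ICAM1, CXCL1, CXCL3 and IL8, and in 0.413% of 35116 windows of the same length; several of these genes had more than 1 window, 17 in all, so a gene's share and a window's share are not on the same footing. The windows of CXCL1 (chr4:73869143-73869392, plus strand) and IL8 (chr4:73740319-73740568, plus strand) are printed 5′ to 3′ because they hold the match near the start, 78 and 91 bases before it, with the match in capitals. A match describes letters and was not tested for binding.
CXCL1: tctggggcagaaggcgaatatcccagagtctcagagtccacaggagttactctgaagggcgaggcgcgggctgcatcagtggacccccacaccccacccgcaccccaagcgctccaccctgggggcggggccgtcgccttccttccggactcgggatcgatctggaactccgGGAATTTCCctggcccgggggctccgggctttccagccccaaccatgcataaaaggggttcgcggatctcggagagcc
IL8: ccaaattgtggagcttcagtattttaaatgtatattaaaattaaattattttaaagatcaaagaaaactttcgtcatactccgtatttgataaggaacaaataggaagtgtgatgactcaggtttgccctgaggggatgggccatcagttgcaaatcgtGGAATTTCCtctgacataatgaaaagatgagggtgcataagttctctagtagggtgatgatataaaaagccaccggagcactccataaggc

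Growth factors and morphogens differed member by member. HBEGF, a ligand of the EGF receptor, was called higher, at 366 TPM in MCC13, against 0.796 TPM in MKL-1, 2.65 in MKL-2 and 1.01 in WaGa, and so was NRG1, a ligand of ERBB3, at 68.8 TPM in MCC13, against 7.26 TPM in MKL-1, 5.47 in MKL-2 and 6.03 in WaGa. TGFB1, TGFB2 and the activin subunit INHBA, which activate SMAD2 and SMAD3, were all called higher. TGFB1 was at 158 TPM in MCC13, against 0.599 TPM in MKL-1, 2.92 in MKL-2 and 0.629 in WaGa. TGFB2 was at 116 TPM in MCC13, against 0 TPM in MKL-1, 1.56 in MKL-2 and 0.0779 in WaGa. INHBA was at 116 TPM in MCC13, against at most 0.0098 TPM in the other 3 lines. TGFB1, TGFB2 and WNT5B lost their calls at a pseudocount of 0.1. BMP7, a ligand of the other SMAD branch, was called lower, at 0.143 TPM in MCC13, against 81.2 TPM in MKL-1, 249 in MKL-2 and 199 in WaGa, a log2 difference of -7.13 ± 0.79 (SE, adjusted p = 0.0284), while BMP4 was called higher at 12.3 TPM in MCC13 and listed at 0 in the other 3. Wnt ligands split too: WNT5B, a ligand of the branch that does not use beta-catenin, was called higher, at 89.7 TPM in MCC13, against 1.06 TPM in MKL-1, 0.417 in MKL-2 and 0.122 in WaGa. WNT10A was at 0.125 TPM in MCC13, against 54.5 TPM in MKL-1, 130.3 in MKL-2 and 33.2 in WaGa, without passing (adjusted p = 0.0585). The secreted Wnt antagonist DKK1 was called higher at 139.5 TPM in MCC13 and 0.0629 TPM in WaGa, and listed at 0 in MKL-1 and MKL-2, and NOTUM, which inactivates Wnt ligands, was called lower, at 0.557 TPM in MCC13, against 60.5 TPM in MKL-1, 34.9 in MKL-2 and 45.9 in WaGa. VEGFA, the main angiogenic factor, was at 32.2 TPM in MCC13, against 59.5 TPM in MKL-1, 379 in MKL-2 and 124 in WaGa, with MKL-2 well above the rest, and did not pass (adjusted p = 0.369).

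Peptide hormones differed in both directions. EDN1 (endothelin-1), which constricts vessels, was called higher, at 260.1 TPM in MCC13, against 0.0748 TPM in MKL-1, 0.532 in MKL-2 and 0.511 in WaGa. NPPB, a natriuretic peptide, was called higher at 70.9 TPM in MCC13 and listed at 0 in the other 3. TAC3 (neurokinin B precursor) was called lower, listed at 0 in MCC13 and at 196 TPM in MKL-1, 204 in MKL-2 and 489 in WaGa. STC2, a secreted glycoprotein that inhibits a protease of IGF-binding proteins, was at 587 TPM in MCC13, against 108 TPM in MKL-1, 188 in MKL-2 and 22.3 in WaGa (adjusted p = 0.303). Of 9 tested IGF-binding proteins and relatives 6 were called higher and 1 lower. IGFBP4 was at 394 TPM in MCC13, against 2.11 TPM in MKL-1, 0.919 in MKL-2 and 1.27 in WaGa. IGFBP3, an early TGF-beta target, was at 43.4 TPM in MCC13, against 0 TPM in MKL-1, 0.254 in MKL-2 and 0.766 in WaGa. IGFBP3 lost its call at a pseudocount of 0.1. IGFBPL1, the member called lower, was at 1.03 TPM in MCC13, against 174 TPM in MKL-1, 442 in MKL-2 and 245 in WaGa. IGFBP5 was already abundant in the other 3 lines and was still called, at 1396 TPM in MCC13, against 165 TPM in MKL-1, 202 in MKL-2 and 149 in WaGa. IGFBP2 was at 202 TPM in MCC13, against 209 TPM in MKL-1, 527 in MKL-2 and 233 in WaGa (adjusted p = 0.649).

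Surface proteins and channels went both ways. Of 653 tested genes on the surface lists 100 (15.3%) were called higher in MCC13 and 48 (7.35%) lower, against 6.47% and 2.47% of all genes, with a median difference of -0.42.

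**Figure D4:**
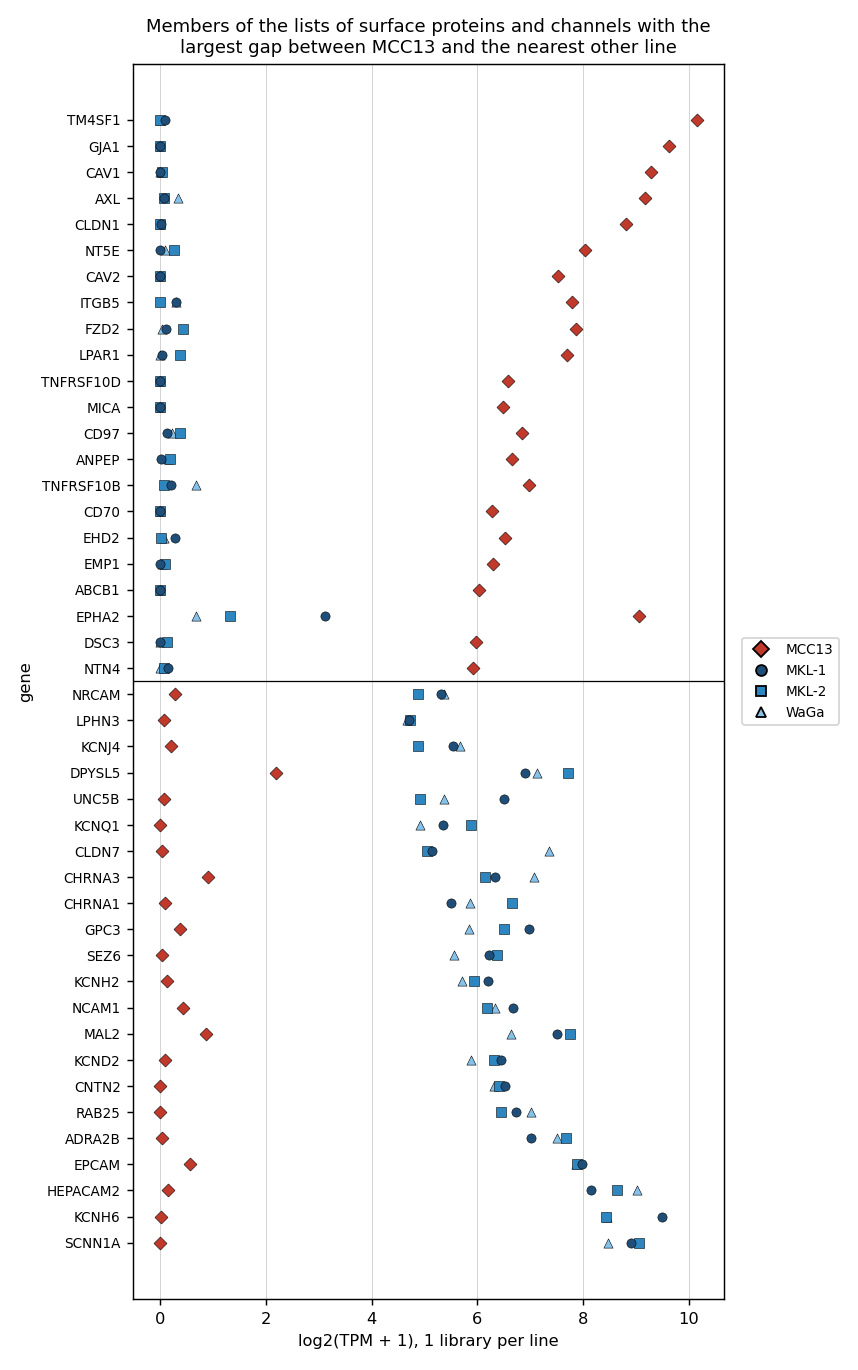
Level on log2(TPM + 1) in MCC13 (diamonds), MKL-1 (circles), MKL-2 (squares) and WaGa (triangles) of the 22 genes of the surface lists with the largest gap above the nearest other line and the 22 with the largest gap below, 1 library per line. Adhesion, receptor and death receptor genes from TM4SF1 to NTN4 are high in MCC13; channels, neural adhesion and epithelial genes from NRCAM to SCNN1A are low there.

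Receptor tyrosine kinases were called in both directions. AXL, the GAS6 receptor, was at 579 TPM in MCC13, against 0.047 TPM in MKL-1, 0.0455 in MKL-2 and 0.268 in WaGa, a log2 difference of 9.02 ± 0.38 (SE, adjusted p = 0.00855), and MERTK of the same family was called higher, at 11.4 TPM in MCC13, against 0.791 TPM in MKL-1, 0.488 in MKL-2 and 0.712 in WaGa. MERTK lost its call at a pseudocount of 0.1. MET, the hepatocyte growth factor receptor, was at 424 TPM in MCC13, against 0 TPM in MKL-1, 14.9 in MKL-2 and 0.00848 in WaGa. EPHA2, an ephrin receptor, was at 536 TPM in MCC13, against 7.65 TPM in MKL-1, 1.49 in MKL-2 and 0.607 in WaGa; both were at least 4-fold above the nearest line and did not pass (adjusted p = 0.151 and 0.06). EGFR was at 36 TPM in MCC13, against 0.502 TPM in MKL-1, 0.226 in MKL-2 and 2.3 in WaGa (adjusted p = 0.0691). ERBB3 lay on the other side, at 3.46 TPM in MCC13, against 71.4 TPM in MKL-1, 26.5 in MKL-2 and 57.1 in WaGa (adjusted p = 0.0914). ALK, INSR and DDR1 were called lower: ALK, a receptor of developing neurons, was at 0.0776 TPM in MCC13, against 24.6 TPM in MKL-1, 25 in MKL-2 and 41.1 in WaGa. The insulin receptor INSR was at 5.82 TPM in MCC13, against 36.5 TPM in MKL-1, 38.4 in MKL-2 and 37.5 in WaGa. The collagen receptor DDR1 was at 27.9 TPM in MCC13, against 117 TPM in MKL-1, 161 in MKL-2 and 144 in WaGa. Of the 33 tested receptors 6 were called higher and 5 lower, and IGF1R overlapped, at 54.8 TPM in MCC13, against 34.3 TPM in MKL-1, 78.1 in MKL-2 and 30.3 in WaGa.

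Integrins, the adhesion receptors for matrix, had higher calls only. Of 19 tested integrins 5 (26.3%) were called higher and 0 lower, against 6.47% and 2.47% of all genes. Integrins summed to 1734 TPM in MCC13, against 322 TPM in MKL-1, 198 in MKL-2 and 269.7 in WaGa. ITGB5, which pairs with ITGAV to bind vitronectin, was at 222 TPM in MCC13, against 0.229 TPM in MKL-1, 0 in MKL-2 and 0.23 in WaGa. ITGA3, a laminin receptor subunit, was at 228 TPM in MCC13, against 15.9 TPM in MKL-1, 11.3 in MKL-2 and 20.5 in WaGa. ITGB1, the shared beta subunit, was at 903 TPM in MCC13, against 207 TPM in MKL-1, 104 in MKL-2 and 159.8 in WaGa, a gap that did not pass (adjusted p = 0.081). Cadherins were called in both directions: CDH13 and the desmosomal DSC3 were called higher, CDH1 (E-cadherin) and CDH3 (P-cadherin) were called lower, and CDH2 (N-cadherin) was not called. DSC3 was at 61.7 TPM in MCC13, against 0 TPM in MKL-1, 0.0921 in MKL-2 and 0 in WaGa. CDH3 was at 0.231 TPM in MCC13, against 62.3 TPM in MKL-1, 27.5 in MKL-2 and 67.8 in WaGa. CDH2 was at 225 TPM in MCC13, against 200.2 TPM in MKL-1, 175 in MKL-2 and 117 in WaGa. CDH13 lost its call at a pseudocount of 0.1, and CDH3 where every gene above 0 TPM was tested. Among claudins CLDN1 was called higher, at 451 TPM in MCC13, against 0.012 TPM in MKL-1, 0 in MKL-2 and 0 in WaGa. CLDN7, an epithelial claudin, was at 0.0235 TPM in MCC13, against 34.4 TPM in MKL-1, 31.9 in MKL-2 and 163 in WaGa, without passing (adjusted p = 0.0942). Ligands and receptors of axon guidance had 7 of 37 tested called lower and 1 higher; CNTN2, an axonal adhesion protein, was listed at 0 in MCC13 and at 91.5 TPM in MKL-1, 84 in MKL-2 and 79 in WaGa, and the 1 called higher was NTN4, a basement membrane netrin, at 59.7 TPM in MCC13, against 0.109 TPM in MKL-1, 0.0492 in MKL-2 and 0 in WaGa.

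Potassium channels and transmitter receptors, which make cells excitable, had more lower than higher calls, whereas sodium and calcium channels had 6 of 29 tested called higher and 3 lower. Potassium channels summed to 129 TPM in MCC13, against 1417 TPM in MKL-1, 969 in MKL-2 and 1140 in WaGa, and 7 of 61 tested were called lower and 3 higher. KCNH6, a channel of the ERG family, was at 0.0102 TPM in MCC13, against 725 TPM in MKL-1, 346 in MKL-2 and 348 in WaGa. KCNH2 of the same family was at 0.0934 TPM in MCC13, against 72.6 TPM in MKL-1, 60.5 in MKL-2 and 51.1 in WaGa. SCNN1A, the alpha subunit of the epithelial sodium channel, was listed at 0 in MCC13 and at 479 TPM in MKL-1, 536 in MKL-2 and 354 in WaGa. The nicotinic receptor subunits CHRNA1 and CHRNA3 were called lower; CHRNA3 was at 0.878 TPM in MCC13, against 79.8 TPM in MKL-1, 70.1 in MKL-2 and 133 in WaGa. Some channels ran against the trend. SCN3A, a sodium channel of the developing brain, was called higher, at 123 TPM in MCC13, against 1.7 TPM in MKL-1, 1.53 in MKL-2 and 0.191 in WaGa, and so was NALCN, a sodium leak channel, at 26.9 TPM in MCC13 and listed at 0 in the other 3. SCN3A lost its call at a pseudocount of 0.1. The mechanosensitive channels stood apart in opposite directions without a call: PIEZO2, which Merkel cells use to sense touch, was at 5.33 TPM in MCC13, against 54.3 TPM in MKL-1, 30.1 in MKL-2 and 95.7 in WaGa (adjusted p = 0.122), and PIEZO1 was at 145 TPM in MCC13, against 1.57 TPM in MKL-1, 7.28 in MKL-2 and 8.43 in WaGa (adjusted p = 0.0975).

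A mixed set of receptors coupled to G proteins, for amines, opioids, other peptides and lipids among other ligands, had 15 of 39 tested genes called higher (38.5%) and 1 lower (2.56%). Over all genes the shares were 6.47% and 2.47%. Of 88 measured, 28 reached 1 TPM in MCC13, against 13 in MKL-1, 13 in MKL-2 and 18 in WaGa. Those tested only through their level in MCC13 could hardly be called lower. LPAR1, a receptor of lysophosphatidic acid, was at 207 TPM in MCC13, against 0.023 TPM in MKL-1, 0.3 in MKL-2 and 0 in WaGa. PTGER4, a prostaglandin E2 receptor, was at 49.9 TPM in MCC13, against 0.0109 TPM in MKL-1, 1.64 in MKL-2 and 0.183 in WaGa. PTGER4 lost its call at a pseudocount of 0.1. EDNRA, the receptor of EDN1, was called at 12.9 TPM in MCC13 and was listed at 0 in the other 3. ADRA2B, an adrenergic receptor, was the 1 called lower, at 0.0194 TPM in MCC13, against 129 TPM in MKL-1, 204 in MKL-2 and 180.2 in WaGa. FZD2, a Wnt receptor, was called higher, at 231 TPM in MCC13, against 0.0848 TPM in MKL-1, 0.343 in MKL-2 and 0.0282 in WaGa.

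Genes by which immune cells recognise a target differed as well. Of 26 tested immune checkpoint and NK-cell ligand genes 9 (34.6%) were called higher and 0 lower, against 6.47% and 2.47% of all genes. MICA and ULBP3, stress ligands of the activating receptor NKG2D, were called higher at 89.1 and 12.3 TPM in MCC13 and were listed at 0 in all 3 other lines. CD274 (PD-L1), the ligand that restrains T cells, was at 22.2 TPM in MCC13, against 0.293 TPM in MKL-1, 0.938 in MKL-2 and 0.0586 in WaGa, a log2 difference of 4.07 ± 0.47 (SE, adjusted p = 0.0312). CD274 lost its call at a pseudocount of 0.1. NT5E (CD73), which makes adenosine, was at 263 TPM in MCC13, against 0 TPM in MKL-1, 0.204 in MKL-2 and 0.0619 in WaGa. Both were called, and CD200, another inhibitory ligand, was at 0.164 TPM in MCC13, against 68.9 TPM in MKL-1, 6.39 in MKL-2 and 62.9 in WaGa, without passing (adjusted p = 0.201). TRAIL receptors were called higher: TNFRSF10B was at 125 TPM in MCC13, against 0.147 TPM in MKL-1, 0.0573 in MKL-2 and 0.597 in WaGa, and the decoy TNFRSF10D was at 95 TPM in MCC13 and listed at 0 in the other 3. LTBR, the lymphotoxin beta receptor, was called lower, at 2.74 TPM in MCC13, against 82.5 TPM in MKL-1, 112 in MKL-2 and 83 in WaGa. CASP8, the caspase that these death receptors engage, was at 60.2 TPM in MCC13, against 0.313 TPM in MKL-1, 1.12 in MKL-2 and 5.14 in WaGa (adjusted p = 0.116).

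Antigen presentation genes varied among the other 3 lines. Of 23 tested genes of antigen presentation by MHC class I 2 (8.70%) were called higher, near the 6.47% of all genes, and 0 lower; 19 had a positive difference, with a median of 1.59 against -0.30 over all genes. Those called were PSMB10, an immunoproteasome subunit, at 60.6 TPM in MCC13, against 7.44 TPM in MKL-1, 10 in MKL-2 and 9.76 in WaGa, and HFE, a class I-like protein of iron sensing, at 4.49 TPM in MCC13, against 0 TPM in MKL-1, 0.0985 in MKL-2 and 0.0363 in WaGa. HLA-B was at 699.7 TPM in MCC13, against 0.0637 TPM in MKL-1, 15.1 in MKL-2 and 322 in WaGa. HLA-C was at 177 TPM in MCC13, against 0.933 TPM in MKL-1, 15.5 in MKL-2 and 243 in WaGa, so WaGa stood with MCC13. PSMB8, also of the immunoproteasome, was at 177 TPM in MCC13, against 2.17 TPM in MKL-1, 104 in MKL-2 and 1.64 in WaGa, and the peptide transporter gene TAP1 was at 91.5 TPM in MCC13, against 0.333 TPM in MKL-1, 40.2 in MKL-2 and 0.399 in WaGa, so that here MKL-2 stood with MCC13. B2M, the light chain of class I, was at 493 TPM in MCC13, against 256 TPM in MKL-1, 397 in MKL-2 and 83 in WaGa. HLA-B, HLA-C, PSMB8, TAP1 and B2M did not pass (adjusted p = 0.441, 0.571, 0.408, 0.369 and 0.504), and HLA genes resemble each other, so their levels are uncertain.

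Targets of antibodies under study in neuroendocrine and other tumours went both ways. Of 33 tested genes 8 (24.2%) were called lower and 6 (18.2%) higher, against 2.47% and 6.47% of all genes. DLL3, an atypical Notch ligand, was at 3.98 TPM in MCC13, against 68.7 TPM in MKL-1, 83.1 in MKL-2 and 86.2 in WaGa. SEZ6 was at 0.0231 TPM in MCC13, against 73.2 TPM in MKL-1, 81.4 in MKL-2 and 46.3 in WaGa. GPC3, a glypican, was at 0.291 TPM in MCC13, against 125 TPM in MKL-1, 89.3 in MKL-2 and 56.2 in WaGa. MUC1, a mucin, was at 3.41 TPM in MCC13, against 68.5 TPM in MKL-1, 81.6 in MKL-2 and 164 in WaGa. These 4 were called lower, MUC1 not where every gene above 0 TPM was tested. CD70 was called higher at 76.6 TPM in MCC13 and listed at 0 in the other 3. CSPG4, a chondroitin sulfate proteoglycan, was called higher, at 48 TPM in MCC13, against 0.0128 TPM in MKL-1, 0.0757 in MKL-2 and 0.125 in WaGa. SSTR2, the somatostatin receptor used for imaging, was at 1.59 TPM in MCC13, against 18.3 TPM in MKL-1, 3.64 in MKL-2 and 51.5 in WaGa (adjusted p = 0.383).

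In the Hippo pathway LATS kinases hold the coactivators YAP1 and WWTR1 in the cytoplasm. Of 33 tested core and target genes 15 (45.5%) were called higher and 1 (3.03%) lower, against 6.47% and 2.47% of all genes. The median difference was 2.95, and 18 were at least 4-fold above, as were 6.20% of all genes. All 33 reached 1 TPM in MCC13, against 21 in MKL-1, 20 in MKL-2 and 18 in WaGa. The targets CTGF and CYR61 were called higher: CTGF was at 884 TPM in MCC13, against 0.344 TPM in MKL-1, 3.06 in MKL-2 and 0.289 in WaGa. CYR61 was at 1850 TPM in MCC13, against 6.57 TPM in MKL-1, 5.83 in MKL-2 and 2.88 in WaGa. PTPN14, a phosphatase that binds YAP, was at 139 TPM in MCC13, against 0.000275 TPM in MKL-1, 0.0153 in MKL-2 and 0.0136 in WaGa. The kinase LATS2, itself a YAP target, was called higher at 18 TPM in MCC13 and was listed at 0 in the other 3, whereas its paralog LATS1 was at 25.2 TPM in MCC13, against 41.7 TPM in MKL-1, 36.1 in MKL-2 and 41.9 in WaGa (adjusted p = 0.221). AMOTL1, an angiomotin, was the 1 called lower, at 28.2 TPM in MCC13, against 126 TPM in MKL-1, 95.2 in MKL-2 and 108 in WaGa. CTGF lost its call at a pseudocount of 0.1, and AMOTL1 where every gene above 0 TPM was tested. The letters GGAATG, a TEAD consensus, were searched on both strands of the 250 bases before the start. Of the 18 genes at least 4-fold above, 15 had a window and 7 held the motif, against 11.9% of the 35116 windows. The genes had been picked with these values known. Several had more than 1 window, 20 in all, so a gene's share and a window's share are not on the same footing. The list also holds known YAP targets, which may carry such letters for that reason, so no conclusion was drawn from the count. The windows of CTGF (chr6:131951373-131951622, minus strand) and ANKRD1 (chr10:90921088-90921337, minus strand), on GRCh38.p14, are printed 5′ to 3′ because they hold more than 1 match, in capitals: at 169, 104 and 95 bases before the start in CTGF, and at 220 and 128 bases before it in ANKRD1. No match was tested for binding.
CTGF: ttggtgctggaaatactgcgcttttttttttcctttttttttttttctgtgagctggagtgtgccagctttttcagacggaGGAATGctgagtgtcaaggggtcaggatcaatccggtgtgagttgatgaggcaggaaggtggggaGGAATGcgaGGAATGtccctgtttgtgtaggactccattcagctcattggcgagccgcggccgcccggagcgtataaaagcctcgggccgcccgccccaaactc
ANKRD1: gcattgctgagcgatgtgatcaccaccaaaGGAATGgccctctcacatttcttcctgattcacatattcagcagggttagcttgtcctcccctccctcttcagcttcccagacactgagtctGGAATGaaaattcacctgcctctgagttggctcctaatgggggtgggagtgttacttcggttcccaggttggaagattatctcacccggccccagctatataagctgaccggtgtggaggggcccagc

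Genes downstream of growth factor receptors and RAS had 12 of 31 tested members (38.7%) called higher and 1 (3.23%) lower, against 6.47% and 2.47% of all genes. Their TPM summed to 4724 in MCC13, against 383 in MKL-1, 459.5 in MKL-2 and 410 in WaGa. The ERK phosphatases DUSP4 and DUSP6, which ERK induces and which switch it off, were called higher. DUSP4 was at 235 TPM in MCC13, against 0.0378 TPM in MKL-1, 0.917 in MKL-2 and 0.491 in WaGa. DUSP6 was at 24.3 TPM in MCC13, against 0.978 TPM in MKL-1, 0.495 in MKL-2 and 0.744 in WaGa. SPRY4, another feedback inhibitor, was at 31.6 TPM in MCC13, against 0.73 TPM in MKL-1, 0.0794 in MKL-2 and 0.464 in WaGa. IER3, an immediate early gene, was at 589 TPM in MCC13, against 2.99 TPM in MKL-1, 12.1 in MKL-2 and 5.06 in WaGa; both were called. DUSP4 and SPRY4 lost their calls at a pseudocount of 0.1, and IER3 where every gene above 0 TPM was tested. GRB7, an adapter of receptor kinases, was the 1 called lower, at 0.463 TPM in MCC13, against 37.2 TPM in MKL-1, 60.8 in MKL-2 and 40.6 in WaGa. GRB10 of the same family was called higher, at 33.3 TPM in MCC13, against 0.151 TPM in MKL-1, 0 in MKL-2 and 0 in WaGa. DUSP26, a phosphatase of neural tissue, was called lower, at 0.166 TPM in MCC13, against 164 TPM in MKL-1, 327 in MKL-2 and 99.6 in WaGa. MYC was at 17 TPM in MCC13, against 2.01 TPM in MKL-1, 3.33 in MKL-2 and 1.46 in WaGa, which did not pass (adjusted p = 0.0921).

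In TGF-beta and BMP signalling 10 of 34 tested genes (29.4%) were called higher and 0 lower, against 6.47% and 2.47% of all genes. TGFBR2, the receptor that binds TGF-beta, was called higher, at 55.7 TPM in MCC13, against 0.00906 TPM in MKL-1, 0 in MKL-2 and 0 in WaGa. TGFBR1, the signalling partner of that receptor, was at 25.8 TPM in MCC13, against 73.5 TPM in MKL-1, 99.8 in MKL-2 and 41.3 in WaGa, not called (adjusted p = 0.275). The coreceptor ENG was called higher, at 118 TPM in MCC13, against 0.304 TPM in MKL-1, 1.18 in MKL-2 and 0.188 in WaGa, as was the inhibitory SMAD6, at 21.4 TPM in MCC13, against 0.4 TPM in MKL-1, 0 in MKL-2 and 0.24 in WaGa. ENG and SMAD6 lost their calls at a pseudocount of 0.1. FSTL1, a secreted BMP antagonist, was at 633 TPM in MCC13, against 0.415 TPM in MKL-1, 0.188 in MKL-2 and 0.178 in WaGa. In the Notch pathway 2 of 30 tested genes (6.67%) were called higher, near the 6.47% of all genes, and 3 (10.0%) lower, against 2.47%. The ligand JAG1 was called higher, at 266 TPM in MCC13, against 2.57 TPM in MKL-1, 6.3 in MKL-2 and 2.9 in WaGa. MFNG, a glycosyltransferase that tunes Notch receptors, was called lower, at 1.56 TPM in MCC13, against 114 TPM in MKL-1, 173 in MKL-2 and 123 in WaGa. Hedgehog genes had 3 of 12 tested called higher and 0 lower, among them GLI3, a transcriptional effector, at 14.7 TPM in MCC13 and listed at 0 in the other 3, and HHIP, which binds and blocks the ligand, at 28 TPM in MCC13, against 0.00414 TPM in MKL-1, 0.0448 in MKL-2 and 0.00559 in WaGa.

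Some innate immune genes were called higher. Of 41 tested interferon genes 9 were called higher and 0 lower. IFITM2 and IFITM3, which block virus entry, were 399 and 412 TPM in MCC13, against at most 0.588 TPM of either in the other 3 lines, though the copies are near-identical. GBP1, an interferon-induced GTPase, was at 80.1 TPM in MCC13, against 0.688 TPM in MKL-1, 0.219 in MKL-2 and 0.0136 in WaGa. These 3 were called. GBP1 lost its call at a pseudocount of 0.1. IFI6, another interferon-induced gene, ran the other way, at 62.2 TPM in MCC13, against 293 TPM in MKL-1, 1058 in MKL-2 and 118 in WaGa (adjusted p = 0.383). For nucleic acid sensing 6 of 21 tested genes were called higher and 0 lower. TMEM173 (STING), the adapter of cytosolic DNA sensing, was at 25.2 TPM in MCC13, against 0.171 TPM in MKL-1, 0.0186 in MKL-2 and 0.0828 in WaGa. IFI16, a DNA sensor, was at 77.4 TPM in MCC13 and listed at 0 in the other 3. MAVS, the adapter of RNA sensing, was at 72 TPM in MCC13, against 46 TPM in MKL-1, 40.2 in MKL-2 and 62.9 in WaGa, not called (adjusted p = 0.404).

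Cytoskeletal genes were among the most abundant genes that differed. Actin and contractility genes summed to 48190 TPM in MCC13, against 9123 TPM in MKL-1, 9660 in MKL-2 and 10670 in WaGa. Of 59 tested, 17 (28.8%) were called higher and 0 lower, against 6.47% and 2.47% of all genes. TAGLN, an actin-binding protein of smooth muscle, was at 1715 TPM in MCC13, against 3.24 TPM in MKL-1, 4.69 in MKL-2 and 3.25 in WaGa. MYL9, a light chain of contractile myosin, was 550.5 TPM in MCC13 and listed at 0 in the other 3. MYLK, the kinase that activates this myosin, was at 246 TPM in MCC13, against 1.2 TPM in MKL-1, 0.914 in MKL-2 and 0.463 in WaGa. All 3 were called. MYH9 and FLNA were abundant in all 4 lines and still called; MYH9, nonmuscle myosin, was at 2783 TPM in MCC13, against 168 TPM in MKL-1, 172 in MKL-2 and 138 in WaGa. FLNA, an actin crosslinker, was at 2136 TPM in MCC13, against 108 TPM in MKL-1, 103 in MKL-2 and 136 in WaGa. ACTB, the most abundant protein-coding gene of MCC13, was at 8568 TPM in MCC13, against 2071 TPM in MKL-1, 2922 in MKL-2 and 2436 in WaGa, without passing (adjusted p = 0.0896). The caveolar genes CAV1 and CAV2 were called higher at 624 and 184 TPM in MCC13, and neither exceeded 0.022 TPM in the other 3 lines. PACSIN1, the neuronal member of a family of membrane-bending proteins, was called lower, at 0.0298 TPM in MCC13, against 15.5 TPM in MKL-1, 21.9 in MKL-2 and 20.4 in WaGa.

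Most lists of the machinery of growth and division had few calls. Of 82 tested cytoplasmic ribosomal protein genes 1 was called higher, RPL39L, at 126 TPM in MCC13, against 0 TPM in MKL-1, 0 in MKL-2 and 0.132 in WaGa, and 0 were called lower. Among 28 mitotic genes, 26 proteasome genes, 40 nuclear-encoded respiratory chain genes and 53 replication-dependent histone genes, limma's adjusted p called 0. At limma's unadjusted p under 0.05, 3 of 28, 4 of 26, 6 of 40 and 7 of 53 passed. Over all genes 5516 of 20698 did, a larger share than in any of these lists. The medians were 0.31, 0.38, -0.32 and -0.74, against -0.30 over all genes. Of the histone genes 47 had a negative difference and 3 were at least 4-fold below. Most transcripts of such histone genes lack a poly(A) tail, so libraries of polyadenylated RNA measure them poorly. Of 42 tested replication and repair genes 1 (2.38%) was called lower, near the 2.47% of all genes, and 34 had a negative difference. At the G1-S transition 2 of 29 tested genes (6.90%) were called higher, near the 6.47% of all genes, and 5 (17.2%) lower, against 2.47%. CDKN1B (p27) and CDKN1C (p57), which inhibit cyclin-dependent kinases, were called lower: CDKN1B was at 43 TPM in MCC13, against 298 TPM in MKL-1, 214 in MKL-2 and 259.6 in WaGa. CDKN1C was at 3.09 TPM in MCC13, against 59.1 TPM in MKL-1, 56.6 in MKL-2 and 36.6 in WaGa. CDK6 was at 77.5 TPM in MCC13, against 1.53 TPM in MKL-1, 9.18 in MKL-2 and 0.246 in WaGa. Its inhibitor CDKN2C was at 46.6 TPM in MCC13, against 409 TPM in MKL-1, 327 in MKL-2 and 217 in WaGa; neither passed (adjusted p = 0.171 and 0.0648).

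Metabolic genes had 20 of 233 tested called higher (8.58%) and 10 lower (4.29%), against 6.47% and 2.47% of all genes, so the share of higher calls was near that of all genes. The members below are single genes. GLS2, the glutaminase of liver, was called lower, at 0.69 TPM in MCC13, against 19.4 TPM in MKL-1, 15.2 in MKL-2 and 15.2 in WaGa. ASS1, which makes argininosuccinate for arginine synthesis, was called lower, at 0.0776 TPM in MCC13, against 61.2 TPM in MKL-1, 142 in MKL-2 and 129 in WaGa, a log2 difference of -6.60 ± 0.63 (SE, adjusted p = 0.0206). ASNS (asparagine synthetase) was called lower, at 29.6 TPM in MCC13, against 268 TPM in MKL-1, 164 in MKL-2 and 200.4 in WaGa. ASNS lost its call where every gene above 0 TPM was tested. PHGDH, the first enzyme of serine synthesis, was at 77.4 TPM in MCC13, against 679 TPM in MKL-1, 904 in MKL-2 and 470.3 in WaGa (adjusted p = 0.0532). ENO2, the neuronal enolase, was called lower, at 33.9 TPM in MCC13, against 380.5 TPM in MKL-1, 469.5 in MKL-2 and 351 in WaGa, while the widely expressed ENO1 was at 3296 TPM in MCC13, against 891 TPM in MKL-1, 2187 in MKL-2 and 1463 in WaGa, not called (adjusted p = 0.327). NNMT, which methylates nicotinamide, was called higher at 54.2 TPM in MCC13 and listed at 0 in the other 3. The sterol regulator SREBF1 was at 19.1 TPM in MCC13, against 136 TPM in MKL-1, 139 in MKL-2 and 1023 in WaGa. HMGCS1, an early enzyme of cholesterol synthesis, was at 51.1 TPM in MCC13, against 180.3 TPM in MKL-1, 994 in MKL-2 and 830 in WaGa. Both lay below the other 3 lines without a call (adjusted p = 0.241 and 0.214). Of 38 genes of cholesterol and fatty acid synthesis 1 was called higher and 1 lower.

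**Figure D5:**
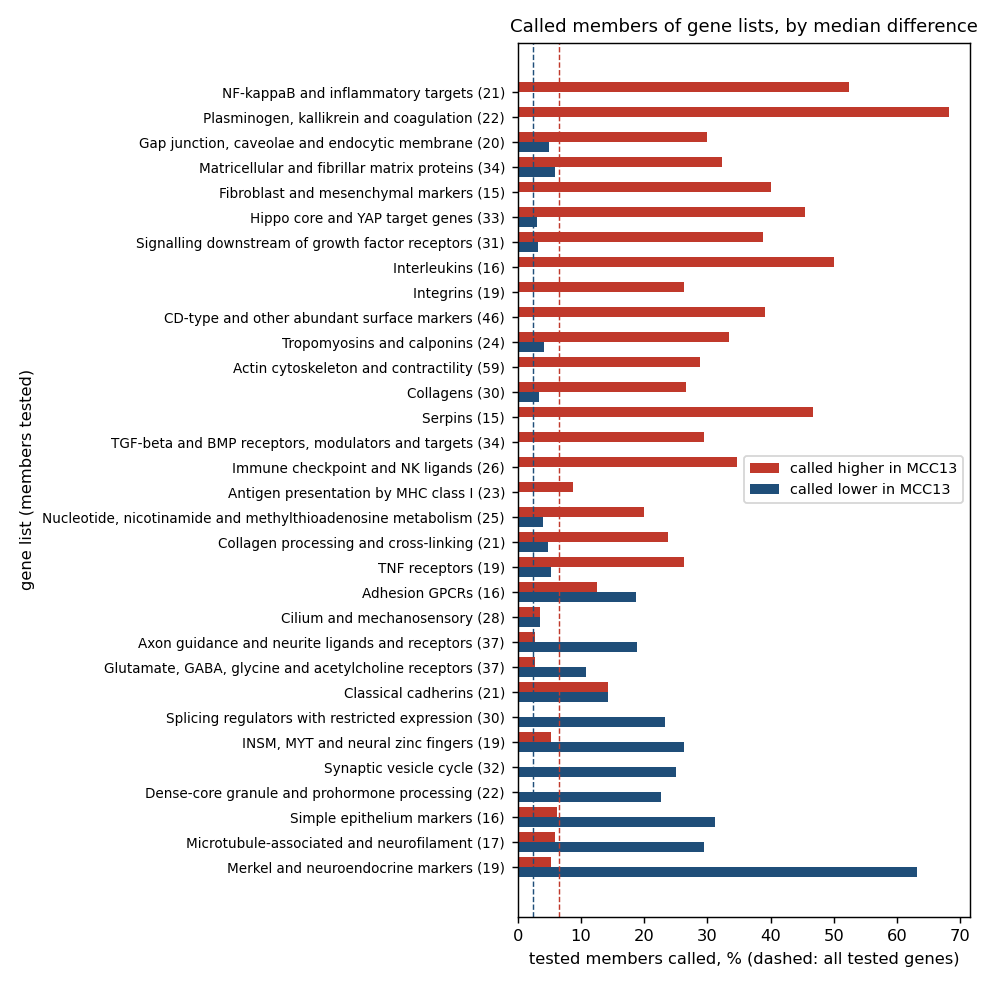
Share of tested members called higher (red) and lower (blue) in MCC13 by limma at an adjusted p under 0.05, for the 20 lists with the highest and the 12 with the lowest median difference among lists with at least 15 tested members; the number tested is in brackets. Dashed lines mark the 6.47% and 2.47% called over all genes: red bars pass the red line in the upper lists, and blue bars are longest for Merkel and neuroendocrine markers, 12 of 19.

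Some genes high in MCC13 were high in 1 of the other lines only. A gene was counted where MCC13 was at least 4-fold above the remaining lines in TPM + 1 and that 1 line was above MCC13 or less than 2-fold below it; the low direction was counted likewise. WaGa shared 39 such genes with MCC13, MKL-2 shared 71 and MKL-1 shared 48. PRAME, a cancer-testis antigen, was at 317 TPM in MCC13, against 7.07 TPM in MKL-1, 6.43 in MKL-2 and 242 in WaGa. PERP, a desmosomal p53 target, was at 41.8 TPM in MCC13, against 0.0683 TPM in MKL-1, 0.366 in MKL-2 and 128 in WaGa; WaGa shared both, within 2-fold of MCC13 for PRAME and above it for PERP. WLS, which escorts Wnt ligands to the surface, was at 94.2 TPM in MCC13, against 0.364 TPM in MKL-1, 83.1 in MKL-2 and 3.54 in WaGa. LDHA, the lactate dehydrogenase of glycolysis, was at 663 TPM in MCC13, against 106 TPM in MKL-1, 768 in MKL-2 and 84.7 in WaGa, with MKL-2 at the level of MCC13. CD9, a tetraspanin, was at 142 TPM in MCC13, against 180.3 TPM in MKL-1, 23.1 in MKL-2 and 22.9 in WaGa, with MKL-1 at the level of MCC13. In the low direction MCC13 shared 146 genes with MKL-2, 90 with WaGa and 70 with MKL-1. MGP, an inhibitor of calcification, was listed at 0 in MCC13, against 592 TPM in MKL-1, 0.786 in MKL-2 and 68.8 in WaGa, low in both MCC13 and MKL-2. These counts used no test, and they were largest for MKL-2 in both directions. A gene can be counted only where that line itself differs from the remaining lines. MKL-2 differed by at least 4-fold from MKL-1 at 1217 genes and from WaGa at 1373, against 1022 between MKL-1 and WaGa. Pearson's r with MCC13 was 0.715 for MKL-2, 0.717 for MKL-1 and 0.703 for WaGa, so the counts do not measure likeness to MCC13.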

How the data were processed

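The series measured polyadenylated RNA of cell lines by directional RNA-seq, 1 library per line. The deposited TPM values were made by the authors; their processing notes name bcl2fastq 2.20, STAR 2.4.5b, StringTie 1.3.5, SAMtools 0.1.19 and the builds hg19 and GRCh37, with no roles or order. Neither the annotation nor any use of strand in quantification is given in the sources used here. TPM keeps no read depth. In the deposited TPM values 1 further column matched no sample and was not used.

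Genes that reached 1 TPM in MCC13, MKL-1, MKL-2 or WaGa were put on log2(TPM + 1) and fitted with limma 3.58.1 (R 4.3.3; moderated variances with a mean-variance trend, 2 residual degrees of freedom), MCC13 against the mean of the other 3, with Benjamini-Hochberg adjustment over 20698 genes and a threshold of 0.05. The 329 genes listed at 0 in all 3 other lines and called had no variance of their own among them, so their test rests on the variance pooled across genes. Where a value is exactly 0 the estimate may have failed; it is given as listed at 0, with no fold. Near-identical copies and overlapping genes (CXCL1, CXCL2 and CXCL3, IFITM2 and IFITM3, HLA genes) may have shared reads. Scripts were tested on simulated data before use.

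The 62 lists and 90 families (3597 distinct genes) were chosen with earlier results of these data known, and lists are described by counts and medians with no test of their own. Genes named come from 1008 that had the largest gaps over all genes or within a list, sat in a list of 12 genes or fewer, led a family, were transcription factors at 50 TPM or more, were the most abundant of a line or were long noncoding genes with the largest gaps. A further 48 were chosen after their values were seen: AMOTL1, B2M, CD200, CD274, CD9, CDKN2C, DDR1, EDNRA, FLNA, GRB7, H19, HIF1A, HLA-B, HLA-C, IER3, IFI6, IGF1R, INSR, KLK11, LATS1, LATS2, LDHA, MAVS, MERTK, MGMT, MGP, MUC1, MYH9, MYLK, MYT1L, NRG1, PACSIN1, PERP, PIEZO2, PLAUR, PSMB8, PTBP1, PTPN14, SPARC, SPRY4, SRRM4, SSTR2, TAP1, TFPI, TGFBR1, VAMP2, VEGFA and WLS. Promoter sequences came from RefSeq on GRCh38.p14, matched by symbol; the submitters' processing notes name GRCh37 for the study, and none of its coordinates are given. Gene classes were taken from GENCODE 29, which held 52338 of the identifiers, and 246 symbols stand for several identifiers. Alternatives changed the pseudocount, the filter on low values, the scaling, the variance model and the lines included. A few members of the lists are counted in totals but are not reported here by name or drawn in the plots by gene.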

Additional observations from a re-analysis of the deposited data

How the results depend on the processing

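With all 4 lines, the 1340 higher and 512 lower genes kept their direction under every alternative in which they were tested. These genes had been called for their distance from the other 3 lines, so a kept direction adds no support. The counts moved. Genes averaging 5 TPM or more over the 4 lines gave 543 higher and 624 lower calls by limma, so that 46.5% of calls were higher, against 72.4% as reported, and 776 genes at least 4-fold above; this filter drops genes near 0 in the other 3 lines. Testing every gene above 0 TPM gave 2807 higher and 505 lower calls, 84.8% higher, and a median difference of -0.055. A pseudocount of 0.1 gave 983 higher and 711 lower calls, 58.0% higher, and 2101 genes at least 4-fold below. Quantile normalization set the median difference at -0.13, against -0.30, a shift of all genes that bears on small differences. Leaving out MKL-1, MKL-2 or WaGa in turn gave 0 to 0 calls in either direction, with 1 residual degree of freedom, 1420 to 1483 genes at least 4-fold above and 1246 to 1393 below; in the fit MCC13 is assumed to vary as the remaining lines do. Of the named genes, 72 lost their call at a pseudocount of 0.1 and 32 gained one, SOX2, RCOR2, OVOL2, WNT10A and SRRM4 among them. With every gene above 0 TPM tested, 41 lost their call, IL8, RUNX1 and TEAD3 among them. Among genes averaging 5 TPM or more 62 gained one, THBS1, IL32, EGFR, EPHA2, SOX2 and PHGDH among them. Beyond these constructions the cause was not tested. Of 69 lists with a median difference of at least 1 in size, 2 changed sign under either filter on low values, 1 over protein-coding genes only and 1 without WaGa. No paired analysis was possible because MCC13 had 1 library. Depth is unknown, so counting error could not be given.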

Other observations

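Long noncoding and imprinted genes also set MCC13 apart. LINC00152, a cytoplasmic long noncoding RNA, was at 175 TPM in MCC13, against 0.0572 TPM in MKL-1, 0 in MKL-2 and 0 in WaGa. MEG3, a maternally expressed noncoding RNA, was at 44.7 TPM in MCC13, listed at 0 in MKL-1 and WaGa and at 0.000116 TPM in MKL-2. PEG3, a paternally expressed zinc-finger gene, was listed at 0 in MCC13 and at 139 TPM in MKL-1, 345 in MKL-2 and 91.5 in WaGa. H19, a maternally expressed noncoding RNA, was at 0.894 TPM in MCC13, against 29.9 TPM in MKL-1, 113 in MKL-2 and 10.9 in WaGa, without passing (adjusted p = 0.207). MIAT, a long noncoding RNA of neural and retinal cells, was at 0.142 TPM in MCC13, against 63.7 TPM in MKL-1, 206 in MKL-2 and 176 in WaGa. The calls of PEG3 and MIAT, both lower, were lost where every gene above 0 TPM was tested. VIM-AS1 was at 280 TPM in MCC13 and listed at 0 in the other 3 lines; it lies antisense to VIM, and no source used here says whether the authors' quantification used strand, so its level is uncertain. Of 22 tested imprinted genes 4 were called higher and 2 lower.

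Drug efflux and detoxification genes differed at single members. ABCB1, the multidrug efflux pump, was called higher at 64.4 TPM in MCC13 and listed at 0 in all 3 other lines. MVP, the major vault protein, was at 234 TPM in MCC13, against 12.4 TPM in MKL-1, 31.6 in MKL-2 and 26 in WaGa (adjusted p = 0.0826). MT1E, a metallothionein, was called higher at 124 TPM in MCC13 and listed at 0 in the other 3, while its relative MT1X overlapped, at 76.5 TPM in MCC13, against 99.5 TPM in MKL-1, 36.2 in MKL-2 and 90.3 in WaGa. MGMT, which repairs alkylated guanine, was at 30.5 TPM in MCC13, against 0 TPM in MKL-1, 15.3 in MKL-2 and 6.81 in WaGa (adjusted p = 0.452). HMGA2, an oncofetal chromatin protein, was called higher, at 258 TPM in MCC13, against 0.00783 TPM in MKL-1, 0.000243 in MKL-2 and 0.00023 in WaGa. CA9, a carbonic anhydrase induced by hypoxia, was at 0.109 TPM in MCC13, against 128 TPM in MKL-1, 587 in MKL-2 and 81.9 in WaGa (adjusted p = 0.0766), and DDIT4, a stress-induced inhibitor of mTOR, was at 4.97 TPM in MCC13, against 403 TPM in MKL-1, 361 in MKL-2 and 102 in WaGa (adjusted p = 0.0792); both lay below the other 3 lines while HIF1A overlapped, at 104 TPM in MCC13, against 110.2 TPM in MKL-1, 102 in MKL-2 and 183 in WaGa.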
